A study of Homo sapiens with 2 samples.

Results

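The named antisense transcripts were the 151 entries, among 13075 in the deposited expression table, whose gene symbol ends in -AS with or without digits, leaving out OIP5-AS1. Such a symbol is given to a noncoding gene on the strand opposite to a neighbour, and the part before the hyphen names that neighbour, here called the sense gene. The sense gene was also in the table for 126 of the 151 entries. The cells were HEK293, a human embryonic kidney line, at passage 15, transfected to make a FLAG-tagged R338W form of TOP3B, used to hold the enzyme on the nucleic acid it has cut. There were 2 libraries, an input library of total RNA made without an antibody and a RIP (RNA immunoprecipitation) library of RNA recovered from the lysate with an anti-FLAG antibody. Both came from the transfected cells, so the input carries the transgene too, and no library from cells lacking the tag was analysed here. Each group held 1 library, so no value below has a replicate error and no test between the groups was possible.

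TOP3B is a topoisomerase that acts on DNA and on RNA, and the study asked which RNAs are held in its cleavage complexes. Antisense transcripts lie across from the exons or the start of another gene, so they can pair with its mRNA, arise from a start site shared with it, or do neither. Many are kept at low levels by nuclear RNA turnover, and a minority act on chromatin, host small nucleolar RNAs (snoRNAs) or are exported.

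Where an antisense exon lies across from a coding exon, the same genomic bases carry both a noncoding RNA and an mRNA, and such stretches are shown here for the members on which the results below turn. Each is 5′ to 3′ on the strand of the antisense RNA, read from GENCODE release 29 transcripts on GRCh38, with capitals for the bases across from the coding sequence of the sense gene. The SPAG5-AS1 stretch lies at chr17:28598866-28598946, plus strand, and the GTF3C2-AS1 stretch at chr2:27341943-27342037, plus strand. The YEATS2-AS1 stretch lies at chr3:183806836-183806955, minus strand, and the RBM5-AS1 stretch at chr3:50099952-50100071, minus strand. The ASMTL-AS1 stretch lies at chrX:1403377-1403466, plus strand, and the PRC1-AS1 stretch at chr15:90966582-90966653, plus strand. The first 5 of these genes were among the 6 antisense genes higher by 2-fold or more in the RIP, and PRC1-AS1 had the ratio farthest below that of its sense gene.
SPAG5-AS1: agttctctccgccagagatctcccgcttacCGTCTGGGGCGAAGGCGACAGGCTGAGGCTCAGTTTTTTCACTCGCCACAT
GTF3C2-AS1: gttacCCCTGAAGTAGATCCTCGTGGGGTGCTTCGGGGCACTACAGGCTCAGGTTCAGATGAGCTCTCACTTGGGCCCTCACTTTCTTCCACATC
YEATS2-AS1: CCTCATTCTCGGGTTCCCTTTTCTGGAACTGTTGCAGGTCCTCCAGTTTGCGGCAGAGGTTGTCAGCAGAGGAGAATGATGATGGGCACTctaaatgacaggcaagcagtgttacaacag
RBM5-AS1: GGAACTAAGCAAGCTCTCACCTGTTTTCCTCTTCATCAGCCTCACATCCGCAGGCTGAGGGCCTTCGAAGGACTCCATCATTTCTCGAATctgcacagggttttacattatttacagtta
ASMTL-AS1: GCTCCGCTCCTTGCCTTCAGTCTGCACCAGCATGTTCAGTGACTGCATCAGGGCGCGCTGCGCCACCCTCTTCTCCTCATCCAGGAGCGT
PRC1-AS1: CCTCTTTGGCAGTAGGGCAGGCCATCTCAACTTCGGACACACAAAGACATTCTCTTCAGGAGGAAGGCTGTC
The capitals cover every base of the ASMTL-AS1 and PRC1-AS1 stretches. In the SPAG5-AS1 stretch they cover 51 of 81 bases.

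The most frequent layout was instead head-to-head, in which sense and antisense genes run away from each other or cross at their 5′ parts. Of 44 such pairs past the floor, the gene spans overlapped in 31 and lay apart in 13. The distance between the starts was not limited, and at PSMD5-AS1, for example, it was 18156 bases. The pair WAC-AS1 and WAC is shown as an example, with the promoter windows of RefSeq on GRCh38 (patch 14) from 250 bases before to 50 after each start. The WAC-AS1 window lies at chr10:28532305-28532604, minus strand, and the WAC window at chr10:28532529-28532828, plus strand. The windows share 76 bases, read in opposite directions, and capitals mark GGGCGG on either strand.
WAC-AS1: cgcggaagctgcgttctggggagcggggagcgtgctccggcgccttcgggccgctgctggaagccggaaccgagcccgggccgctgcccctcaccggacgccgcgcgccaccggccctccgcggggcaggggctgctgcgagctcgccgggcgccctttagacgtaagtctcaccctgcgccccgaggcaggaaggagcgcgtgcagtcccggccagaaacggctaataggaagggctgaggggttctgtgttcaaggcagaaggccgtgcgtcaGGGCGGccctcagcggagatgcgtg
WAC: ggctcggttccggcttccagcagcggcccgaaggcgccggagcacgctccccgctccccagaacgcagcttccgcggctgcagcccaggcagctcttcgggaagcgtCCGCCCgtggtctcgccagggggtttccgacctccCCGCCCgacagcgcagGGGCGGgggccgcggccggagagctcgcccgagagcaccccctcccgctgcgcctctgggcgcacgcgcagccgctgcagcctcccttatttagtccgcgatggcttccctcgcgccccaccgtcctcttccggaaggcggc
A promoter window was given for 97 of the 151 members. The letters GGGCGG, on either strand, were in 47 of them (48.5%), against 45% of all 35116 windows, and CCAAT was in 33 (34%) against 34.6%. The letters TATAAA were in 4 (4.12%), against 11.5% of all windows. The median GC content was 63.3% in members' windows and 58.7% in all, and the median number of CpG dinucleotides was 23 against 14. The 3 motifs were searched separately, so their matches can overlap, and a match describes the letters and is not a site.

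Values are FPKM, which divides fragments by transcript length in kilobases and by the library's total, and thus are levels per length. The ratio of a gene is log2((RIP + 1)/(input + 1)), which understates the differences of low genes. A gene was compared where 1 of its 2 values reached 5 FPKM, and this floor left 11990 genes of the table and 115 of the 151 members. Of the 115, 4 are not whole genes but short copies of conserved regions, described below, so that 111 antisense genes were left. Among these 111, 83 passed the floor in both libraries, 11 in the RIP alone and 17 in the input alone, and a gene that passed in 1 library alone had to be lower in the other. Depth was estimated at 25000000 fragments for the RIP and 15300000 for the input. A member past the floor with an annotated length stood on a median of 128 estimated fragments in the RIP, against 81.2 in the input, with under 50 in 12 and 28 members. TOP3B itself stood at 30666 FPKM in the RIP against 15062 in the input, which does not separate the transgene from the chromosomal gene. Of 8 markers of HEK293 cells 7 were in the table, and of the kidney tubule, liver and blood markers the table held LRP2 alone, at 5.49 FPKM in the RIP against 1.96 in the input.

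Antisense transcripts were low to moderate in level. In a culture measured as a whole, fewer cells with a transcript and less of it per cell cannot be told apart. Past the floor, the median member stood at 8.42 FPKM in the RIP against 7.96 in the input, against 19.1 and 17.6 FPKM for all genes. The 10 highest in the input ran from NUTM2A-AS1 to LRRC75A-AS1, a host gene that holds SNORD49A, SNORD49B and SNORD65. LRRC75A-AS1 (ENSG00000175061.17, GRCh38 chromosome 17, 16438822 to 16478678, plus strand) stood at 133 FPKM in the RIP against 213 in the input, above every other member in both libraries. THAP9-AS1, which starts beside the transposase-derived gene THAP9, stood at 77.2 FPKM in the RIP against 64.8 in the input. EPB41L4A-AS1, which holds SNORA13, stood at 35.3 and 59.6 FPKM. PCBP1-AS1, whose gene spans that of the RNA-binding protein PCBP1, stood at 43.5 and 50.7 FPKM. TTN-AS1, which runs against the titin gene TTN, stood at 60.2 and 40.5 FPKM, while TTN itself gave no value here. Of these 5 the RIP was higher for THAP9-AS1 and TTN-AS1 and lower for the other 3. The remaining high members were PSMA3-AS1 (30 FPKM in the RIP against 35.9 in the input), FGD5-AS1 (24.0 and 35.6), THUMPD3-AS1 (40.1 and 35.3) and RAB30-AS1 (19.9 and 30.1), of which THUMPD3-AS1 alone was higher in the RIP.

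**Figure D1:**
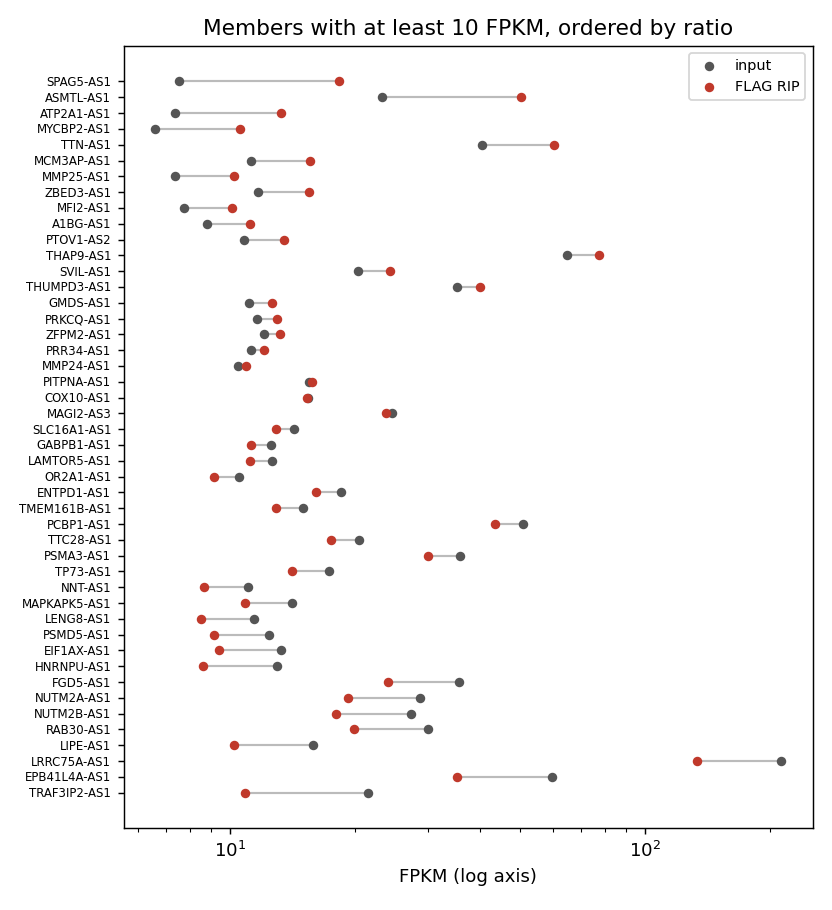
FPKM (log axis) of the 46 antisense genes that reached 10 FPKM in either library, ordered by ratio, with input in grey, FLAG RIP in red and 1 library each. The RIP is higher in 20 and lower in 26, and LRRC75A-AS1 lies to the right of all others, at 133 and 213 FPKM.

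As a group the antisense genes had slightly lower ratios than the table as a whole, with wide overlap. The median over the 111 antisense genes was -0.13, with quartiles of -0.41 and 0.22, and 46 ratios lay above 0 and 65 below. All 11990 genes had a median of 0.13, with quartiles of -0.25 and 0.50. With the 4 short copies the median of the 115 members was -0.10, and over all 151 members without a floor it was -0.05. The sign of the members' median depends on the scaling between libraries. It was 0.31 when both libraries were given equal summed FPKM, a setting chosen after seeing the data, which put the median of all genes at 0.58, so the members' median lay below that of all genes there as well.

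Members at least 2-fold apart were few. Of the 11990 genes, 588 (4.90%) had 2-fold or more of their input level in the RIP, and 300 (2.50%) were lower by as much. How many went each way turned on the scaling, with 365 higher and 450 lower after centring on the median gene, and 2608 and 132 with equal summed FPKM. Among the 115 members 9 (7.83%) were higher and 1 (0.87%) lower, and 3 of the 9 were short copies listed at 0 in the input. Among the 111 antisense genes 6 (5.41%) were higher, which is close to the share in the table, and 1 (0.901%) was lower. At a 1.5-fold limit 12 antisense genes (10.8%) were higher, against 19.9% of the table, and 16 (14.4%) were lower, against 10.2%. On the deposited scale antisense genes past the floor thus leaned towards the input at that limit, whereas the table leaned towards the RIP. The floor fixed the direction of the 11 genes that passed it in the RIP alone and of the 17 in the input alone. Genes counted on both sides of the limit were among them. Over all 151 members without a floor, short copies included, 19 (12.6%) were higher and 19 (12.6%) lower.

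**Figure D2:**
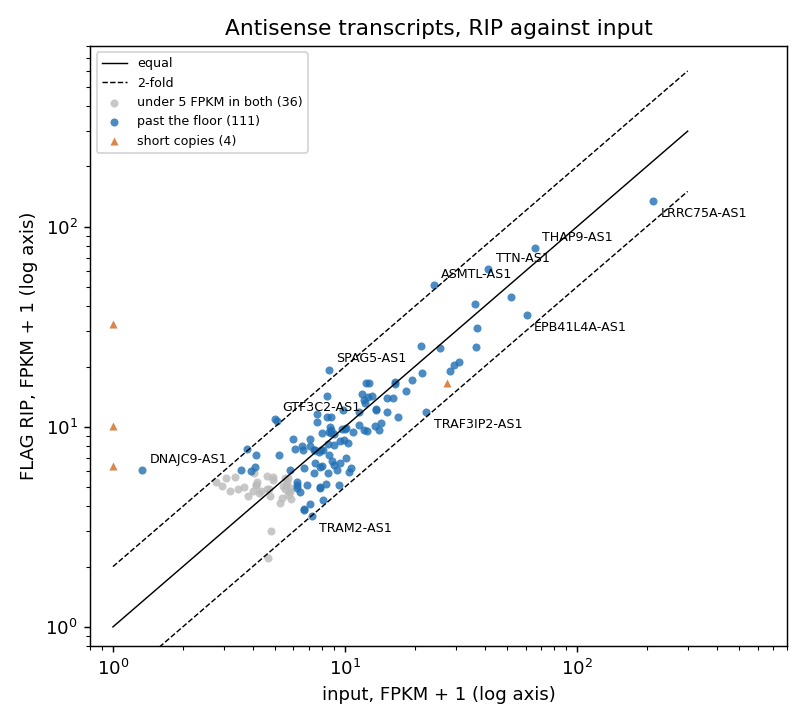
FPKM + 1 of each member in the FLAG RIP (vertical, log axis) against the input (horizontal, log axis), 1 library each, with lines for equal values and 2-fold differences and with grey points for the 36 members under the floor. Most points lie between the 2-fold lines, 3 of the 4 short copies (triangles) sit at the left edge because the input lists them at 0, and DNAJC9-AS1 is the antisense gene farthest above the upper line.

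The 6 antisense genes at least 2-fold higher in the RIP were SPAG5-AS1, GTF3C2-AS1, ASMTL-AS1, YEATS2-AS1, RBM5-AS1 and DNAJC9-AS1. With a pseudocount of 5 none of the 6 reached 2-fold, and their ratios ran from 0.59 for RBM5-AS1 to 0.97 for ASMTL-AS1, with DNAJC9-AS1 at 0.91. Apart from DNAJC9-AS1, each has exons across from coding bases of its sense gene, as in the stretches shown above, and each sense gene had a ratio above 0 too. The library kit keeps strand, per the labels' protocols, but whether the counting used it is not given in the sources used here, so fragments from bases that both genes share cannot be told apart. SPAG5-AS1 (ENSG00000227543.4, chromosome 17, 28598790 to 28617377, plus strand) starts inside SPAG5, which encodes a mitotic spindle protein. It stood at 18.3 FPKM in the RIP against 7.54 in the input, a ratio of 1.18. SPAG5 stood at 135 and 77.3 FPKM, a ratio of 0.80. Both genes were thus higher in the RIP, and 384 exon bases of SPAG5-AS1 lie across from exons of SPAG5.

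GTF3C2-AS1 (ENSG00000234945.7, chromosome 2, 27335535 to 27342599, plus strand) lies inside GTF3C2, which encodes a subunit of a general factor of RNA polymerase III. It stood at 9.99 FPKM in the RIP against 3.98 in the input, a ratio of 1.14, and GTF3C2 stood at 45.4 and 29.3 FPKM, a ratio of 0.62. YEATS2-AS1 (ENSG00000233885.7, chromosome 3, 183806457 to 183810783, minus strand) lies inside YEATS2, which encodes a histone-reading subunit of an acetyltransferase complex. It stood at 9.64 and 4.09 FPKM, a ratio of 1.06, and YEATS2 at 29.8 and 17.9 FPKM, a ratio of 0.70. RBM5-AS1 (ENSG00000281691.1, chromosome 3, 50099603 to 50100988, minus strand) lies inside RBM5, which encodes a splicing regulator, and is annotated as 1 transcript of 1386 bases. It stood at 6.75 and 2.80 FPKM, a ratio of 1.03, and RBM5 at 136 and 91.6 FPKM, a ratio of 0.57. In these 3 pairs the antisense RNA was the minor partner, at 13.6%, 22.8% and 3.06% of the sense level in the input. The 3 antisense RNAs each passed the floor in the RIP alone, so each had to be higher there.

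ASMTL-AS1 (ENSG00000236017.8, chromosome X, 1401769 to 1414028, plus strand) was the higher partner of its pair. It lies in the pseudoautosomal region, at the 3′ end of ASMTL. It stood at 50.2 FPKM in the RIP against 23.2 in the input, a ratio of 1.08, and ASMTL at 7.47 and 5.79 FPKM, a ratio of 0.32. The antisense level was 401% of the sense level in the input and 672% in the RIP. DNAJC9-AS1 (ENSG00000236756.4, chromosome 10, 73247360 to 73276984, plus strand), which starts inside the gene of the histone chaperone DNAJC9, stood at 5.05 and 0.34 FPKM, a ratio of 2.17. Its input value corresponds to 7.79 estimated fragments and its RIP value to 189, it passed the floor in the RIP alone, and it shares 0 coding bases with DNAJC9, which stood at 30 and 27.1 FPKM.

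Below these came 6 antisense genes between 1.5-fold and 2-fold higher. Of the 6, ATP2A1-AS1 and MYCBP2-AS1 passed the floor in both libraries, and the others passed in the RIP alone. ZSWIM8-AS1, whose sense gene encodes a ubiquitin ligase component, stood at 6.26 FPKM in the RIP against 3.12 in the input. ATP2A1-AS1, inside the gene of a calcium pump of the sarcoplasmic reticulum, stood at 13.3 and 7.36 FPKM, and ATP2A1 at 9.40 and 5.12. The ratios of that pair were 0.77 and 0.76. The others were IDI2-AS1 (0.77), DLG5-AS1 (0.63), PARD6G-AS1 (0.62) and MYCBP2-AS1 (0.60), and 1340 exon bases of MYCBP2-AS1 lie across from coding bases of the ubiquitin ligase gene MYCBP2. MCM3AP-AS1, which has 1094 such bases against the mRNA export factor gene MCM3AP, stood at 15.6 and 11.3 FPKM, while MCM3AP stood at 69.1 and 40.6. Among members with at least 10 FPKM, MMP25-AS1, ZBED3-AS1, MFI2-AS1, A1BG-AS1 and PTOV1-AS2 followed with ratios from 0.42 down to 0.29.

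TRAM2-AS1 was the antisense gene at least 2-fold lower in the RIP. TRAM2-AS1 (ENSG00000225791.6, chromosome 6, 52577307 to 52583993, plus strand) starts close to TRAM2, a gene of the endoplasmic reticulum, and shares no exon with it. It stood at 2.60 FPKM in the RIP against 6.22 in the input, a ratio of -1.0, on 44.7 and 65.8 estimated fragments. It passed the floor in the input alone. TRAM2 stood at 6.25 and 7.61 FPKM, a ratio of -0.25. The next lowest, TRAF3IP2-AS1, stood at 10.9 and 21.5 FPKM, a ratio of -0.92, while TRAF3IP2, an adaptor of interleukin-17 signalling, stood at 9.44 and 8.08. The antisense RNA of that pair was at 266% of the sense level in the input and 115% in the RIP.

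STARD13-AS, within the gene STARD13, stood at 3.29 FPKM in the RIP against 7.07 in the input, a ratio of -0.91. PRC1-AS1 had -0.88, GAS5-AS1 -0.80, NIFK-AS1 -0.79, SP2-AS1 -0.78, LOXL1-AS1 -0.78 and OTUD6B-AS1 -0.77. STARD13-AS and all of these but OTUD6B-AS1 passed the floor in the input alone, which fixed their direction. GAS5-AS1 lies at the 3′ end of GAS5, itself a noncoding host gene of snoRNAs. It stood at 4.97 and 9.43 FPKM, while GAS5 stood at 180 and 197. Among members with at least 10 FPKM the low end held EPB41L4A-AS1 (-0.74) and LRRC75A-AS1 (-0.67), the 2 members that hold a snoRNA annotated by name. Past the floor 8 members hold an annotated small RNA, with a median of -0.20 and 7 ratios below 0. They include TMEM161B-AS1 (-0.21) and UBA6-AS1 (-0.10), whose small RNAs carry Rfam numbers in place of names, and these could be snoRNA hosts too. Beside them were LIPE-AS1 (10.2 FPKM in the RIP against 15.9 in the input), RAB30-AS1 (-0.57), FGD5-AS1 (-0.55), HNRNPU-AS1 (-0.54), EIF1AX-AS1 (-0.46) and PSMD5-AS1 (-0.40). NUTM2A-AS1 (19.3 and 28.6 FPKM) and NUTM2B-AS1 (18.1 and 27.3) lie in near-identical copies on chromosome 10, so fragments could be split between them and their values are uncertain.

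Within pairs, the antisense RNA had the lower ratio more often than the sense gene. Both genes passed the floor in 89 pairs, with 88 distinct sense genes, not counting the short copies. The antisense ratio was above the sense ratio in 32 pairs and below in 57, and the median difference, antisense minus sense, was -0.20 with quartiles of -0.55 and 0.20. By at least 1.5-fold the antisense ratio was above in 6 pairs (6.74%) and below in 21 (23.6%), and by at least 2-fold it was above in 2 (2.25%) and below in 10 (11.2%). The floor fixed the direction of some of these antisense genes. Among the 21, GAS5-AS1, NIFK-AS1, PRC1-AS1, RNASEH1-AS1, STARD13-AS, TRAM2-AS1, WAC-AS1 and ZNF528-AS1 passed it in the input alone. Among the 6, DNAJC9-AS1 and TMEM147-AS1 passed it in the RIP alone. Over the 93 pairs that include short copies the sense genes had a median ratio of 0.14, close to the 0.13 of all genes, and the antisense members -0.08. The difference within a pair hardly depends on the scaling between libraries, and its median was -0.19 with equal summed FPKM. A further 30 pairs had the antisense member under the floor, and 3 the sense gene.

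The antisense ratio lay farthest below the sense ratio at PRC1, which encodes a microtubule bundling protein of cytokinesis. PRC1-AS1 (ENSG00000258725.1, chromosome 15, 90966345 to 90988624, plus strand) stood at 4.10 FPKM in the RIP against 8.41 in the input, and PRC1 at 536 and 242 FPKM. Their ratios were -0.88 and 1.15, a difference of -2.03, although 406 exon bases of PRC1-AS1, of which 144 are across from coding bases, overlap PRC1. PRC1-AS1 was 3.48% of the sense level in the input and 0.765% in the RIP. It passed the floor in the input alone and so had to be lower in the RIP. LENG8-AS1 stood at 8.51 and 11.5 FPKM, and LENG8 at 245 and 125, a difference of -1.35. HNRNPU-AS1 stood at 8.62 and 13.0 FPKM, while the gene of the nuclear matrix protein HNRNPU stood at 448 and 321, a difference of -1.02. In these 3 pairs the mRNA was many times more abundant and higher in the RIP, while the antisense RNA was lower.

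The other pairs at least 2-fold apart in this direction were STARD13-AS (-1.55), OTUD6B-AS1 (-1.19), SBF2-AS1 (-1.18), NIFK-AS1 (-1.17), TRAF3IP2-AS1 (-1.12), EPB41L4A-AS1 (-1.07) and MAPKAPK5-AS1 (-1.02). Of these, STARD13-AS and NIFK-AS1 passed the floor in the input alone. Among pairs in which both genes reached 10 FPKM, TTC28-AS1 had -0.97, SVIL-AS1 -0.73 and PITPNA-AS1 -0.56. SVIL-AS1 was itself slightly higher in the RIP, at 24.3 FPKM against 20.4, and SVIL, the gene of the actin-binding protein supervillin, stood at 34.8 and 17.3. At WAC, whose promoter windows are shown above, the antisense RNA stood at 4.0 and 6.83 FPKM and WAC at 105 and 97.3. The ratios of that pair were -0.65 and 0.11, so genes with overlapping start regions lay 0.76 apart. WAC-AS1 too passed the floor in the input alone.

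In the opposite direction, DNAJC9-AS1 (2.04) and TMEM147-AS1 (1.00) were the pairs at least 2-fold apart. Both of these antisense genes passed the floor in the RIP alone. TMEM147-AS1 stood at 7.70 FPKM in the RIP against 4.97 in the input, and TMEM147, which encodes a membrane protein of the endoplasmic reticulum, at 32.2 and 44.6. LAMTOR5-AS1 stood at 11.2 and 12.6 FPKM, a ratio of -0.16, while LAMTOR5, a subunit of the lysosomal Ragulator complex, stood at 26.4 and 56.5, a ratio of -1.07. That difference of 0.91 thus came from a low sense gene. TOPORS-AS1 (4.19 and 7.25 FPKM) and TOPORS (11.5 and 24.1 FPKM), a ubiquitin and SUMO ligase gene, were both lower in the RIP. ASMTL-AS1 (0.76), NR2F2-AS1 (0.71), UBL7-AS1 (0.69), CDKN2B-AS1 (0.58) and GTF3C2-AS1 (0.52) had smaller differences in this direction. Among pairs in which both genes reached 10 FPKM, further ones were SPAG5-AS1 (0.38), GMDS-AS1 (0.27), PSMA3-AS1 (0.26), GABPB1-AS1 (0.21), THUMPD3-AS1 (0.20) and PTOV1-AS2 (0.19).

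**Figure D3:**
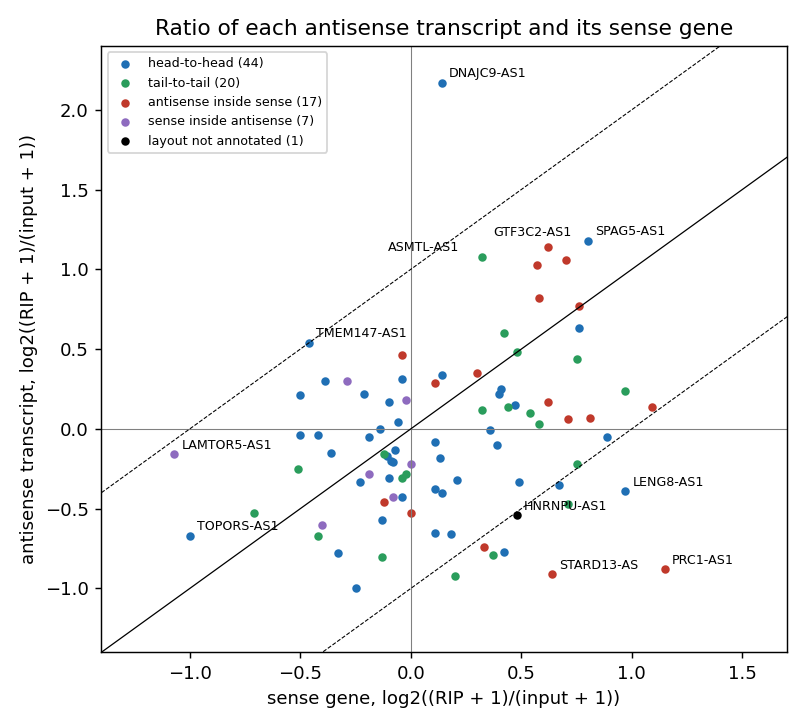
Ratio of each antisense transcript (vertical) against the ratio of its sense gene (horizontal) for 89 pairs, both as log2((RIP + 1)/(input + 1)), coloured by layout, with solid lines for equal ratios and dashed lines for a 2-fold difference. More points lie below the solid line (57) than above it (32), and PRC1-AS1, at -0.88 against 1.15, lies farthest below.

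Sense and antisense ratios were weakly related. Both were above 0 in 27 pairs and both below in 28, while 23 pairs had the antisense RNA below 0 and the sense gene above, and 11 the reverse. Pearson's r over the 89 pairs was 0.25 and Spearman's coefficient 0.25, given as a description of genes that share the same 2 libraries and in part the same bases. The antisense level was a median of 39% of the sense level in the input (quartiles 18.7% and 99.7%) and 36.3% in the RIP (16.6% and 74.9%). It was above the sense level in 22 pairs in the input and 16 in the RIP, and under 10% of it in 11 and 13. The antisense RNA was thus the minor partner in most pairs of both libraries.

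Ratios differed with the layout of the 2 genes, given here as a description with no test. In 44 head-to-head pairs, in which the genes run away from each other or cross at their 5′ parts, the median ratio was -0.11 for the antisense RNA. It was -0.04 for the sense gene. In 20 tail-to-tail pairs, which meet at their 3′ ends, the medians were -0.19 and 0.35. In 17 pairs with the antisense gene inside the sense gene they were 0.17 and 0.62. This group held GTF3C2-AS1, YEATS2-AS1 and RBM5-AS1, 3 of the 6 antisense genes at least 2-fold higher, beside 4.90% of all genes. These 3 passed the floor in the RIP alone, which fixed their direction. In 7 pairs with the sense gene inside the antisense gene the medians were -0.22 and -0.19. The antisense median was below the sense median in each of the 4 layouts, and both were highest where the antisense gene lies inside the sense gene. Relative to the median of all genes, 0.13, the antisense median of that group was 0.04 higher and those of the other layouts were lower. The layout of HNRNPU-AS1 was not given by the annotation.

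Whether the 2 genes share bases also went with the ratios. Antisense genes across from coding bases of their sense gene (40 pairs) had a median of 0.11, and 5 were at least 2-fold higher, while their sense genes had a median of 0.39. Those with no such bases (48 pairs) had a median of -0.19, with 1 higher (DNAJC9-AS1) and 1 lower (TRAM2-AS1), and their sense genes -0.02. Of all genes, 4.90% were higher and 2.50% lower by as much. Among the 5, GTF3C2-AS1, YEATS2-AS1 and RBM5-AS1 passed the floor in the RIP alone. DNAJC9-AS1 did so too, and TRAM2-AS1 passed in the input alone, so the floor fixed the direction of each. Relative to the median of all genes the first antisense median was -0.02 and the second -0.32. By the share of exon bases in common, the antisense medians were -0.18 with none (23 pairs), -0.18 with up to 10% (32 pairs), 0.14 with more than 10% and up to 30% (15 pairs) and 0.16 above 30% (18 pairs). The sense medians moved in the same order, from -0.10 through -0.03 and 0.32 to 0.57, so the differences were near each other in the groups with shared bases, at -0.14, -0.18 and -0.16, and -0.31 with none.

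The limit on strand given above applies to pairs with shared exon bases, among them SPAG5-AS1, GTF3C2-AS1, YEATS2-AS1, RBM5-AS1, ASMTL-AS1, PRC1-AS1 and LENG8-AS1. In the 23 pairs without shared exon bases, 5 antisense ratios were above the sense ratio and 18 below, with a median antisense level of 68.7% of the sense level in the input and 56% in the RIP. In the 65 pairs with shared bases 27 were above and 38 below, with levels of 30.4% and 29.6%. The 16 members past the floor with no exon base shared with any annotated gene had a median ratio of -0.17. Among the 23 pairs, TRAM2-AS1, TBX2-AS1 and ZNF528-AS1 passed the floor in the input alone and DLG5-AS1 in the RIP alone, which fixed their direction. The pairs with and without shared bases also differed in level, and an effect of shared fragments on the ratios was not tested.

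**Figure D4:**
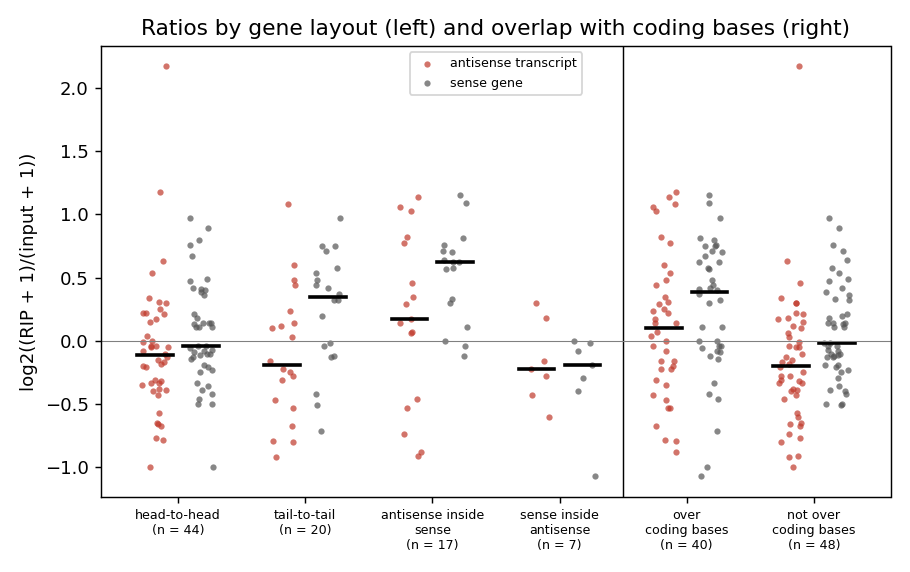
Ratios, log2((RIP + 1)/(input + 1)), of antisense transcripts (red) and their sense genes (grey) by layout (left) and by whether the antisense exons lie across from coding bases (right), with 1 point per gene and black bars for medians. The red bar is below the grey one in every group, and both are highest for antisense genes inside their sense gene (0.17 and 0.62).

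Other antisense genes of the table gave a similar median with a wider spread. The 186 genes annotated as antisense that lack an -AS name had a median ratio of -0.03 past the floor. Among the 160 of them that overlap a coding gene past the floor the median was -0.04, against 0.30 for the coding genes, and the median difference was -0.22, near the -0.20 of named pairs. Those pairs were at least 1.5-fold apart in 55.6% of cases, against 30.3% of named pairs. For comparison, 1241 pairs of coding genes that overlap on opposite strands were so far apart in 37.1% of cases. The named pairs are joined by symbol and need not overlap, and in 13 head-to-head pairs the gene spans lie apart, so the sets are unlike. The difference between named and unnamed pairs was not tested. The 5 genes past the floor with names in -OT or -IT, given to overlapping and intronic transcripts, had a median of -0.76, and none was above 0.

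By annotated class, 74 members of the antisense class had a median ratio of -0.09, 19 processed transcripts -0.05, and 9 long intergenic RNAs -0.43. The last group held TRAM2-AS1, EPB41L4A-AS1 and RAB30-AS1. The 3 members annotated as protein-coding, MMP24-AS1, NCBP2-AS2 and TOPORS-AS1, had ratios from -0.67 to 0.06. By length of the median transcript, the shortest, middle and longest of 3 groups had medians of 0.03, -0.20 and -0.08. By level the medians were -0.23, -0.04 and -0.15 from low to high. Neither length nor level gave an order of the medians. By length, 2.7%, 16.7% and 24.3% were at least 1.5-fold lower (10.2% of all genes), and 10.8%, 5.56% and 16.2% higher (19.9% of all genes). By level, 16.2%, 11.1% and 5.41% were higher from low to high, and 27%, 5.56% and 10.8% lower. The share lower thus rose with length and the share higher fell with level, in groups of 36 or 37 members. The low group by level ran from 5.39 to 13.35 FPKM summed over both libraries. It held most of the members that passed the floor in 1 library alone, whose direction the floor fixed. The shares by level thus depend on the floor. The 94 members with at least 100 estimated fragments in all had a median of -0.09.

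The well-studied antisense transcripts lay near or below the input. Of a list of 39 such names 20 were in the table and 15 past the floor, with a median of -0.23, 4 ratios above 0 and 11 below. At the 1.5-fold limit 0 were higher and 3 lower, namely LOXL1-AS1, EPB41L4A-AS1 and LRRC75A-AS1, against 19.9% and 10.2% of all genes. CDKN2B-AS1, known as ANRIL and linked to Polycomb silencing of the CDKN2A and CDKN2B locus, stood at 7.65 FPKM in the RIP against 6.05 in the input. CDKN2B, which lies within its gene, stood at 14.6 and 18.1 FPKM. FOXD3-AS1 (4.32 and 5.22 FPKM), NNT-AS1 (8.64 and 11.1), MAPKAPK5-AS1 (10.9 and 14.1) and PCBP1-AS1 were lower in the RIP. PRKCQ-AS1 (13.0 and 11.6 FPKM), THAP9-AS1 and MCM3AP-AS1 were, with CDKN2B-AS1, the 4 above 0. The remaining members were FGD5-AS1, GABPB1-AS1, HOXA-AS2 and HOXB-AS3.

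Members from the HOX clusters, which encode the transcription factors of body-axis patterning, were low in both libraries. Of 6, HOXA-AS2 stood at 6.48 FPKM in the RIP against 6.75 in the input, HOXB-AS3 at 5.39 and 6.98, and HOXA10-AS at 7.07 and 8.01. HOXA-AS3 (3.91 and 4.53 FPKM), HOXA11-AS (3.91 and 3.72) and HOXB-AS1 (4.56 and 2.08) were under the floor. The ratios of the 6 ran from -0.32 to 0.85, and HOXB-AS1 alone lay past 1.5-fold. The 6 members beside zinc-finger genes named ZNF had a median of -0.29 and ran from -0.53 to 0.31, with ZNF337-AS1 and ZNF582-AS1 (0.31) under the floor. The 4 past the floor had a median of -0.38 and ran from -0.53 to 0.05. The 3 beside proteasome subunit genes were PSMA3-AS1 and PSMD5-AS1, both lower in the RIP, and PSMB8-AS1, which was just under the floor at 4.88 and 3.06 FPKM.

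The 36 members under the floor ran from 1.21 to 4.88 FPKM. Of these 21 had ratios above 0 and 15 below, with a median of 0.10. FOXP4-AS1 was the lowest, at 1.21 FPKM in the RIP against 3.68 in the input, and USP3-AS1 the highest, at 4.29 and 1.78. Just inside the floor were PARD6G-AS1 (5.03 FPKM in the RIP), DNAJC9-AS1 (5.05) and CFLAR-AS1 (5.09), and just outside were PSMB8-AS1 (4.88 in the RIP), ASB16-AS1 (4.87 in the input) and TMEM44-AS1 (4.82 in the input).

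The 4 short copies are annotated stretches of 119 to 167 bases named after longer antisense RNAs, and their symbols match the naming rule once a trailing copy number is dropped. Both SMAD5-AS1 copies lie on the strand of SMAD5 and so are not antisense to it, although they are counted among the 115 members and the 93 pairs. The CDKN2B-AS copy (ENSG00000274055.1, 144 bases) stood at 31.8 FPKM in the RIP, the FAM13A-AS1 copy (ENSG00000278151.1, 119 bases) at 9.11 and a first SMAD5-AS1 copy (ENSG00000274934.1, 167 bases) at 5.36, and each was listed at 0 in the input. A further SMAD5-AS1 copy (ENSG00000277524.1, 124 bases) stood at 15.5 FPKM in the RIP against 26.5 in the input. These lengths are below the estimated mean fragment lengths of 172 bases in the RIP and 168 in the input, where FPKM values rest on few fragments. No fold is given against a library listed at 0. CDKN2B-AS1 as a whole gene, at 7.65 and 6.05 FPKM, did not show the difference of its short copy.

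Genes that act on such transcripts were measured as well, from lists of the enzymes and binding proteins of double-stranded RNA and of nuclear RNA turnover. Of 24 genes for double-stranded RNA binding and editing 22 were past the floor, with a median ratio of 0.30, of which 2 were higher by 2-fold or more and 0 lower, against 4.90% and 2.50% of all genes. Among the higher was DGCR8 (81.5 FPKM in the RIP against 38.8 in the input), a partner of DROSHA. The lowest were PRKRA (-0.63) and NKRF (-0.47). DICER1-AS1, which starts by the gene of the processing enzyme DICER1, was under the floor, at 4.57 and 4.68 FPKM, while DICER1 had a ratio of 0.84.

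Of 34 genes for nuclear RNA turnover 31 were past the floor, with a median ratio of 0.33, 3 at least 2-fold higher and 0 lower, again beside 4.90% and 2.50% of all genes. NRDE2 stood at 37.1 FPKM in the RIP against 13.0 in the input, and ZFC3H1, a scaffold that links poly(A)-tailed nuclear RNA to the exosome, at 60 and 23.2. SRRT, which joins the cap-binding complex to turnover factors, stood at 215 and 98.0 FPKM. The lowest were EXOSC6 (-0.75), a core subunit of the exosome, and its cofactor C1D (-0.72). The medians of both lists were above the 0.13 of all genes and the 0.15 of protein-coding genes, and that of the antisense members was below both. A link between these genes and the ratios of antisense RNAs was not tested.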

How the data were processed

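RNA was measured in 1 input and 1 FLAG RIP library. Per the submitters' processing notes, the tools were RSEM 1.2.31, STAR 2.6.1, Trimmomatic 0.3 and cutadapt 1.18 on build hg38. The sources used here give no settings, no strand option of the counting and no expression filter. Each gene has 1 value per library in the table of the authors, and these deposited values were read as FPKM: they are decimals, total 1090243 (RIP) and 1512049 (input), and step more finely in longer transcripts. Gene names were rejoined in 36 entries, and 19 symbols turned into dates were restored from the Ensembl identifier.

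Depth was searched for as a fragment total at which values of single-transcript genes came close to whole fragments. Because multiples of the true total also give whole fragments, the lowest totals with a high score were preferred to the best-scoring total. The closest fit may thus lie at a higher total. Of 188 such genes 63.3% lay within 0.15 of a whole fragment (RIP), and 63.9% of 302 (input), against 41.7% and 40.5% with lengths shuffled between genes. Depths and fragment numbers are thus approximate.

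Coordinates, classes and exons came from GENCODE release 29 on GRCh38, the assembly of hg38, matched by identifier for 12983 of 13075 genes (99.3%). HNRNPU-AS1 had no match. Ratios used a pseudocount of 1 FPKM, a floor of 5 FPKM and limits of 2-fold and 1.5-fold. No p-value, SD or interval was computed, because each group has 1 library and genes are not replicates. Scripts were tested on simulated data. The tools were Python 3.11.15, numpy 2.4.6, scipy 1.17.1, pandas 2.3.3 and matplotlib 3.10.9.

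The members and gene lists were chosen with earlier results of these data known. The rule for named members with at least 10 FPKM took the 12 highest and 12 lowest ratios and the pairs with the 8 highest and 8 lowest differences where both genes reached 10 FPKM. It added the 10 highest input levels, the 3 members on either side of the floor, the well-studied members past the floor and up to 2 highest and 2 lowest genes of the other lists. Other genes were named after their values were seen, among them the genes under 10 FPKM that lie past a fold limit. Some genes that the rule takes are left out of the text.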

Additional observations from a re-analysis of the deposited data

How the results depend on the processing

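No paired analysis was possible because RIP and input are single libraries. Count-based scaling (TMM, DESeq2) does not apply to FPKM and was left out. Against 588 higher and 300 lower genes in the table, 9 higher and 1 lower member, a members' median of -0.10, a median difference within pairs of -0.20, and 5 pairs above and 11 below by 2-fold, the following counts moved by over 1.5 times or medians by over 0.1. Pseudocount 0.1 gave 3 lower members. Pseudocount 5 gave 300 and 180 genes, 3 and 0 members, and 2 and 3 pairs, of which the 3 members are short copies listed at 0 in the input. Without a floor 2 members were lower. A floor of 20 FPKM left 18 members and 6 pairs, and gave 352 and 157 genes, 2 and 0 members, a members' median of -0.23, a pair median of -0.47, and 0 and 1 pairs. Centring on the median gene gave 365 higher genes, 4 lower members and a members' median of -0.23. The 1.5-fold limit gave 2386 and 1222 genes, 15 and 17 members, and 9 and 22 pairs. The 4-fold limit gave 79 and 84 genes, 4 and 0 members, and 3 and 1 pairs. The 26 pairs without exon overlap gave 3 and 2 pairs, of which the 3 above are short copies, and the 16 pairs with both genes at 10 FPKM or more in both libraries gave 0 and 2.

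Settings chosen after seeing the data were these. Leaving out the 4 short copies, or asking for 100 estimated fragments, gave 2 pairs above. Without the copies, pseudocount 5 gave 0 and 0 members and 0 and 2 pairs, and the 23 pairs without exon overlap gave 0 and 2 pairs and a pair median of -0.31. Equal summed FPKM gave 2608 and 132 genes, 16 and 0 members, and a members' median of 0.31, with all genes at 0.58. Rescaling without abundant RNA classes, a planned setting, gave a members' median of -0.16 with all genes at 0.06. Over the pseudocounts and scalings, 122 values of single named members moved by at most 0.1 and 123 by more, of which centring and equal sums, which shift every gene, gave 49 each. The pair median stayed below 0 under each setting run. The causes were not tested, apart from the smaller numbers of genes that a floor, a limit or a subset leaves. No difference has a replicate check, and depth limits most the members near the floor, which rest on few fragments.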
